A study of Mus musculus with 2 samples.

Results

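The miRNA genes described here, 6 in all, lie inside the Hox gene clusters of the mouse and belong to 3 families, miR-10 (Mir10a, Mir10b), miR-196 (Mir196a-1, Mir196a-2, Mir196b) and miR-615 (Mir615). They were chosen by gene name, and all 6 were found among the 2202 miRNA genes of the annotation. Their levels were measured by microRNA sequencing of the gastrocnemius, a calf muscle of the hindlimb, in 2 female mice aged 10 days. The animals were of the strain B6CASTF1/J, the first-generation hybrid of C57BL/6 and CAST mice. The labels number the tissue samples as biological replicates 1 and 2 of a single group, name no treatment, describe the animals under different numbers and yet give both the same donor entry. If that entry is of the strain, the spread between them is that of 2 animals. Otherwise it may be technical. The word animals below stands for the 2 samples, with this limit. No other tissue or condition was sampled, so levels could be compared between genes and between the 2 libraries, but not with a forelimb or trunk muscle.

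Hox genes encode homeodomain transcription factors that give body segments and limb regions their positional identity. In each of the 4 clusters they stand in a fixed order, from the Hox13 end, used in posterior and distal parts of the body, to the Hox1 end, used near the head. miR-10 genes stand beside Hox4 genes and miR-196 genes between the Hox9 and Hox10 places. Both families are known to repress Hox messages, and in mouse and chick embryos miR-196 is known from the hindlimb, where Hoxb8 is its best studied target. Mir615 lies in an intron of Hoxc5.

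The mature arms show which genes could act on the same targets, so the known main arm of each member is given 5′ to 3′ from RefSeq (build GRCm38.p6), with the seed, bases 2 to 8, in capitals. Mir196a-1 and Mir196a-2 encode the same arm.
miR-10a-5p: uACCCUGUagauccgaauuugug
miR-10b-5p: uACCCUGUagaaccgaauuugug
miR-196a-5p: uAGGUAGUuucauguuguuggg
miR-196b-5p: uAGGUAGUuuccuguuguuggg
miR-615-3p: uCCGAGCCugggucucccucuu

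The 6 genes therefore fall into 3 seed families. Counted from the 5′ end, the miR-10 arms differ by the single substitution U12A (miR-10a base first) and the miR-196 arms by A12C (miR-196a base first), both outside the seed. No other gene of the RefSeq miRNA table carries any of the 3 seeds. In miR-196 the seed letters recur 1 base further in within let-7, from base 3 of let-7i-5p over 7 bases, so the seeds of miR-196 and let-7 are not the same. The 11 bases from base 7 of miR-10a-5p recur from base 6 of miR-100-5p, a relative encoded outside the Hox clusters.
let-7i-5p: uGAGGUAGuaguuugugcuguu
miR-100-5p: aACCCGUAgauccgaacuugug

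All 6 genes were detected in both animals, at 2 CPM or more. CPM, the unit of all levels here, are reads per 1e6 sense reads on miRNA genes, of which there were 3510897 in replicate 1 and 3949733 in replicate 2. The threshold lies above the limit that a count of 0 allows, 0.854 CPM in replicate 1 and 0.760 CPM in replicate 2. Together the 6 genes held 1.66% of the counted reads in replicate 1 and 1.60% in replicate 2, or 16299 ± 464 CPM (SD, n = 2 animals). In all, 332 genes were detected, with a median of 129.7 CPM. Counting only reads placed at a single site, Mir196a-1 was the only member below that median.

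By counts that leave out reads aligned to several places, Mir196b, the HoxA member, was the most abundant. It had 28415 reads in replicate 1 and 29096 in replicate 2, which gave 8093 CPM (Wilson 95% interval 8000.2 to 8188) and 7367 CPM (7283 to 7451). Its mean of 7730.0 ± 514 CPM placed it at rank 25 of all genes. The animals differed by more than the counting intervals, which cover counting error only, since reads without molecular identifiers are not independent molecules.

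Mir10b, the HoxD member, followed with 16768 and 18717 reads in replicates 1 and 2. These gave 4776 CPM (4704 to 4849) and 4739 CPM (4672 to 4807), a mean of 4757 ± 26.3 CPM at rank 35. Its animals overlapped within counting error, with the smallest spread of the 6 members relative to the mean (0.553%).

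Mir10a, in HoxB, had 8312 reads in replicate 1 and 10376 in replicate 2. Its levels were 2367 CPM (2317 to 2419) and 2627 CPM (2577 to 2678), with a mean of 2497 ± 184 CPM at rank 53. It was the only member with the higher value in replicate 2.

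Mir196a-2, in HoxC, had 3537 and 3665 reads in replicates 1 and 2, or 1007 CPM (975 to 1041) and 928 CPM (898 to 958). Its mean was 968 ± 56.2 CPM at rank 81. Mir615, also in HoxC, had 1306 and 1192 reads in replicates 1 and 2, or 372 CPM (352 to 393) and 302 CPM (285 to 319). With a mean of 337 ± 49.6 CPM at rank 129, it varied most between the animals, the SD being 14.7% of the mean. Mir196a-1, the second HoxB member, had only 37 and 36 reads in replicates 1 and 2, or 10.5 CPM (7.65 to 14.5) and 9.11 CPM (6.58 to 12.6). Its mean of 9.83 ± 1.01 CPM at rank 270 carries the widest counting intervals of the 6 relative to the level. None of the members had an antisense read in either library.

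**Figure D1:**
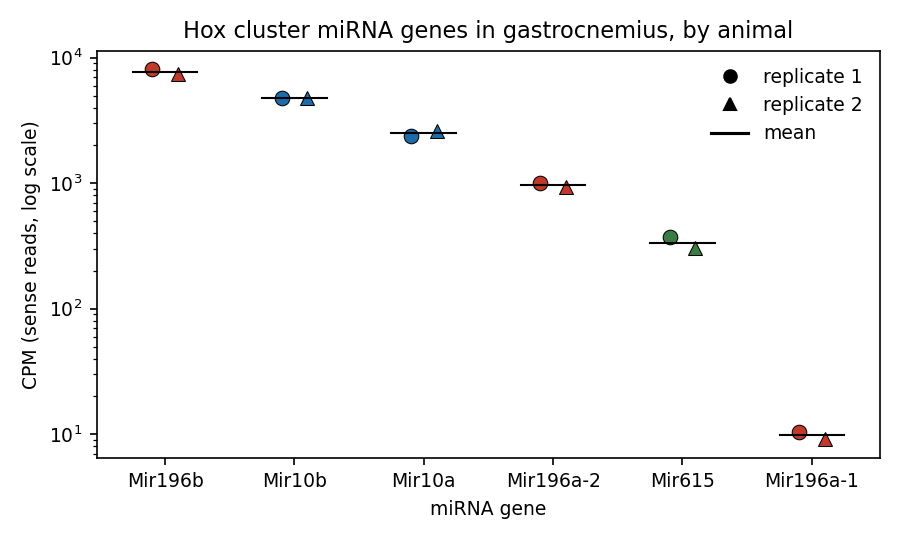
Level of each Hox cluster miRNA gene in CPM on a log scale (vertical axis) by gene (horizontal axis), with circles for replicate 1, triangles for replicate 2 and a line at the mean of the 2 animals. Red marks miR-196, blue miR-10 and green miR-615 genes. The order runs from Mir196b at 7730.0 CPM to Mir196a-1 at 9.83 CPM, and no gene's animals overlap those of its neighbour. Reads aligned to several places are not counted.

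The order of the 6 genes was the same in both animals, and no neighbours in it overlapped. Mir196b exceeded Mir10b 1.69-fold in replicate 1 (exact 95% interval 1.66 to 1.73) and 1.55-fold in replicate 2 (1.53 to 1.58). Mir10b exceeded Mir10a 2.02-fold in replicate 1 (1.96 to 2.07) and 1.80-fold in replicate 2 (1.76 to 1.85). Mir10a exceeded Mir196a-2 by 2.35-fold and 2.83-fold in replicates 1 and 2, and Mir196a-2 exceeded Mir615 by 2.71-fold and 3.07-fold. The size of each of these steps thus moved somewhat from animal to animal, while its direction held. The last step, Mir615 over Mir196a-1, was 35.3-fold (25.5 to 50.4) in replicate 1 and 33.1-fold (23.8 to 47.5) in replicate 2. All of these ratios compare counts of reads placed at a single site.

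For the pair of Mir196a genes this limit decides what the counts can mean. The longest run their precursors share is 22 bases, which is the whole of miR-196a-5p, shown in capitals in the hairpins as annotated.
Mir196a-1: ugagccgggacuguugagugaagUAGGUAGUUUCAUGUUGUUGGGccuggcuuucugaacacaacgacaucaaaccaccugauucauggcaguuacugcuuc
Mir196a-2: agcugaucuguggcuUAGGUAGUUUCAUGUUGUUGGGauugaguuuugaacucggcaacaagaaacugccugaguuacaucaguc

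The bases beside the capitals differ between the copies on both sides. A read that lies wholly within the mature arm matches both loci exactly, and reads aligned to several places were counted on no gene. Such reads made up 42.6% of replicate 1 and 46.4% of replicate 2 over all reads, and how many of them were miR-196a was not measured. The counts of Mir196a-1 and Mir196a-2 thus leave out at least the reads that match both exactly. Their ratio, and the ratio of 7.99 ± 0.0670 between Mir196b and Mir196a-2 (SD, n = 2), are values of the counted reads and no measure of miR-196a against miR-196b. By contrast, Mir196b shares at most 12 bases in a row with a Mir196a precursor, and Mir10a and Mir10b share at most 15 with each other. None of Mir10a, Mir10b, Mir196b and Mir615 shares a window of 18 bases with another annotated precursor, so their levels do not carry this limit for exact matches within the annotated miRNA genes. Whether the aligner allowed mismatches is not given. The main arms of Mir10a and Mir10b, and those of Mir196b and the Mir196a genes, differ by a single base.

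By family, miR-196 genes together stood at 9111 CPM in replicate 1 and 8304 CPM in replicate 2, and miR-10 genes at 7143 and 7366 CPM. The miR-196 sum was higher in both animals even without the reads set aside for miR-196a. It held 53.4% ± 1.99 of the reads of the 6 members, against 44.5% ± 2.23 for miR-10 and 2.06% ± 0.246 for miR-615 (SD, n = 2 each).

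The place of each gene is given in build mm10 with the GENCODE M21 annotation. Mir196b (ENSMUSG00000065443.1) lies on chromosome 6 from 52230081 to 52230165 on the minus strand, the strand of the HoxA genes. It lies 2.38 kb past the stop codon of Hoxa10 and 4.02 kb before the coding start of Hoxa9. Of 3 annotated Hoxa9 transcripts that span it, 2 hold it in an exon, and no annotated coding sequence of Hoxa9 overlaps it.

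Both remaining miR-196 genes take the matching place in their clusters. Mir196a-2 (ENSMUSG00000065488.2) lies on chromosome 15 from 102973350 to 102973434 on the plus strand, 2.32 kb past the stop codon of Hoxc10 and 8.26 kb before the coding start of Hoxc9. It falls in an intron of 1 long annotated Hoxc5 transcript. Mir196a-1 (ENSMUSG00000065546.1) lies on chromosome 11 from 96265164 to 96265265 on the plus strand, 6.33 kb before the coding start of Hoxb9. HoxB has no Hoxb10, and the nearest gene on the other side is Hoxb13, whose stop codon is 69.0 kb away. No annotated gene on its strand contains it.

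The miR-10 genes stand just before the Hox4 genes. Mir10b (ENSMUSG00000065500.3) lies on chromosome 2 from 74726070 to 74726137 on the plus strand, 1.18 kb before the coding start of Hoxd4, in introns of long transcripts of Hoxd3 and Hoxd4. Mir10a (ENSMUSG00000065519.1) lies on chromosome 11 from 96317165 to 96317274 on the plus strand, 1.55 kb before the coding start of Hoxb4, with no annotated host on its strand. Mir615 (ENSMUSG00000076010.1) lies on chromosome 15 from 103014910 to 103015001 on the plus strand, in an intron of Hoxc5. A single further miRNA gene is annotated within the spans of the 4 clusters, Gm44463 in HoxD on the minus strand, with 0 reads in either library.

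**Figure D2:**
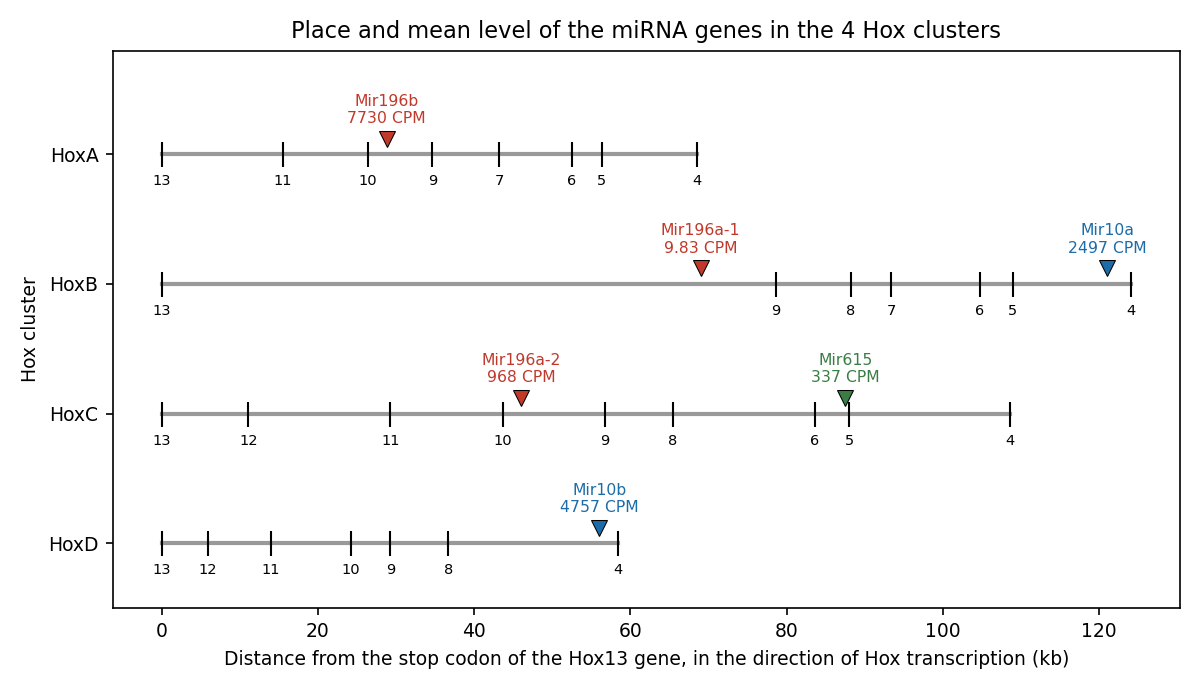
Place of the miRNA genes (triangles, with their mean CPM) in the 4 Hox clusters, one row each. The horizontal axis is the distance in kb from the stop codon of the Hox13 gene in the direction of transcription, and ticks with numbers mark the stop codons of the Hox genes numbered 4 or higher. The miR-196 genes (red) stand between the places of Hox10 and Hox9 or, in HoxB, before Hox9, and the miR-10 genes (blue) stand just before Hox4.

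Read by cluster, the single HoxA gene held 47.4% ± 1.80 of the reads of the 6 members and the single HoxD gene 29.2% ± 0.669. The HoxB pair held 15.4% ± 1.56 and the HoxC pair 8.00% ± 0.422 (SD, n = 2 animals each). The HoxA and HoxD shares exceeded those of HoxB and HoxC in both animals. The HoxB and HoxC shares lack the miR-196a-5p reads that match both of those clusters.

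In the counted reads, the levels within a cluster ran in different directions. In HoxB, Mir10a stood 121 kb from the Hoxb13 stop codon and exceeded the more 5′ Mir196a-1, at 69.0 kb. In HoxC it was the more 5′ gene, Mir196a-2 at 46.0 kb from the Hoxc13 stop codon, that exceeded Mir615 at 87.5 kb. Across clusters, the highest levels were those of Mir196b, at 28.8 kb from the Hoxa13 stop codon, and Mir10b, at 56.0 kb from the Hoxd13 stop codon. The HoxB direction could turn with the miR-196a reads set aside, whose number was not measured. With 6 genes, 2 of them undercounted, no relation of level to position was computed.

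Among all detected genes the members spread over most of the range. Mir196b exceeded 92.5% of the 332 detected genes, Mir10b 89.5%, Mir10a 84.0%, Mir196a-2 75.6%, Mir615 61.1% and Mir196a-1 18.7%. The gene next above and the gene next below each member in mean level were taken as those most like it in level over the 2 samples, since 2 samples of a single group give no pattern to match. In 10 of these 12 pairs the animals overlapped, which follows largely from choosing neighbours by their mean in the same libraries. It is no result about the members. Mir10b, for example, overlapped Mir191, at 4739 CPM in replicate 1 and 4644 CPM in replicate 2. Mir10a overlapped Mir369, at 2481 and 2496 CPM in replicates 1 and 2. The exceptions were Mir30a below Mir196b (6619 ± 834 CPM) and Mir744 above Mir10b (5286 ± 206 CPM).

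Of the relatives of miR-10 outside the Hox clusters, Mir100 had 6086 and 6507 CPM in replicates 1 and 2, above Mir10b in both animals. Mir99a was higher still, at 22931 and 24194 CPM, above the sum of both miR-10 genes, while Mir99b stood between Mir10b and Mir10a, at 4539.9 and 3899.8 CPM. Together the relatives held 3.36% and 3.46% of the counted reads in replicates 1 and 2, more than the 6 Hox cluster genes in either animal. Their seeds differ from that of miR-10, as the sequence of miR-100-5p above shows.

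**Figure D3:**
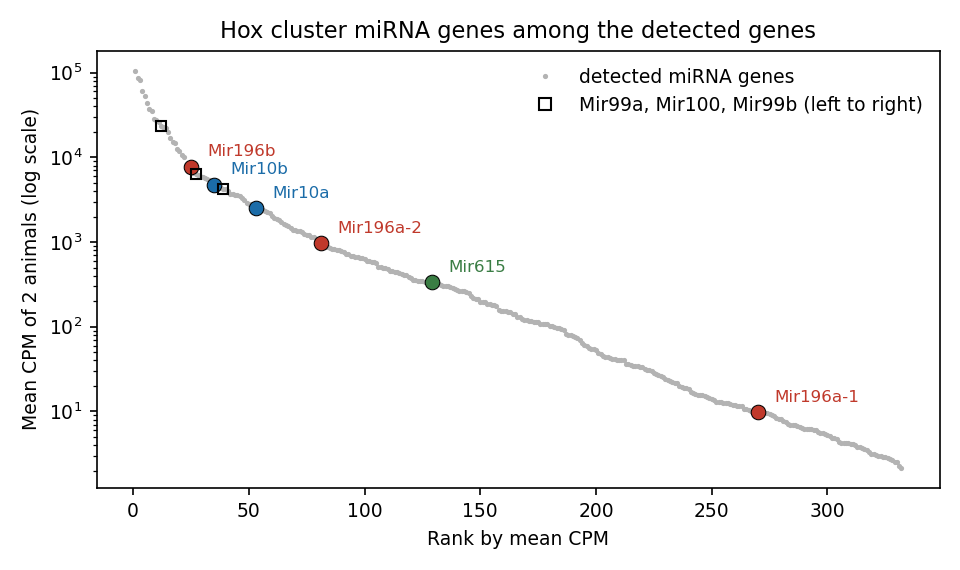
Mean CPM of the 2 animals on a log scale (vertical axis) against rank (horizontal axis) for the 332 detected miRNA genes in grey. Filled circles mark the 6 Hox cluster genes, from rank 25 to rank 270, and open squares mark Mir99a, Mir100 and Mir99b from left to right.

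The 2 libraries were then compared, gene by gene, by an exact binomial test (two-sided, conditional on the library totals) with Benjamini-Hochberg adjustment. It compares the libraries of 2 samples, not conditions. Of 395 genes tested, 7.09% were called different, at an adjusted p under 0.05 and at least 2-fold. This 7.09% is not matched in depth to the members. With at least 50 counts required, which all 6 members had, 13 genes were called in place of 28. None of the 6 members was called, whereas 4 of the 6 had an adjusted p under 0.05 when no fold limit was set. Over all genes tested that share was 41.3%, and over the 165 genes with at least 1000 reads in the 2 libraries together it was 69.1%. All members but Mir196a-1 have that many reads, and 4 of these 5 passed.

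The largest difference was that of Mir615, higher in replicate 1 by 1.23-fold (exact 95% interval 1.14 to 1.33, exact adjusted p = 8.84e-07). Mir196b was higher in replicate 1 by 1.10-fold (1.08 to 1.12, exact adjusted p = 1.84e-28) and Mir196a-2 by 1.09-fold (1.04 to 1.14, exact adjusted p = 0.00166). Mir10a went the other way, with a ratio of replicate 1 over replicate 2 of 0.901 (0.875 to 0.928, exact adjusted p = 1.03e-11). For Mir10b the ratio was 1.01 (0.987 to 1.03, exact adjusted p = 0.616) and for Mir196a-1 it was 1.16 (0.711 to 1.88, exact adjusted p = 0.701). With 37 reads in replicate 1 and 36 in replicate 2, a difference in Mir196a-1 as large as that of Mir615 was not detectable. The median absolute log2 ratio was 0.14 over the members and 0.21 over the 332 detected genes. All members but Mir196a-1 lay above the median level of the detected genes, so these values are not matched in level.

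**Figure D4:**
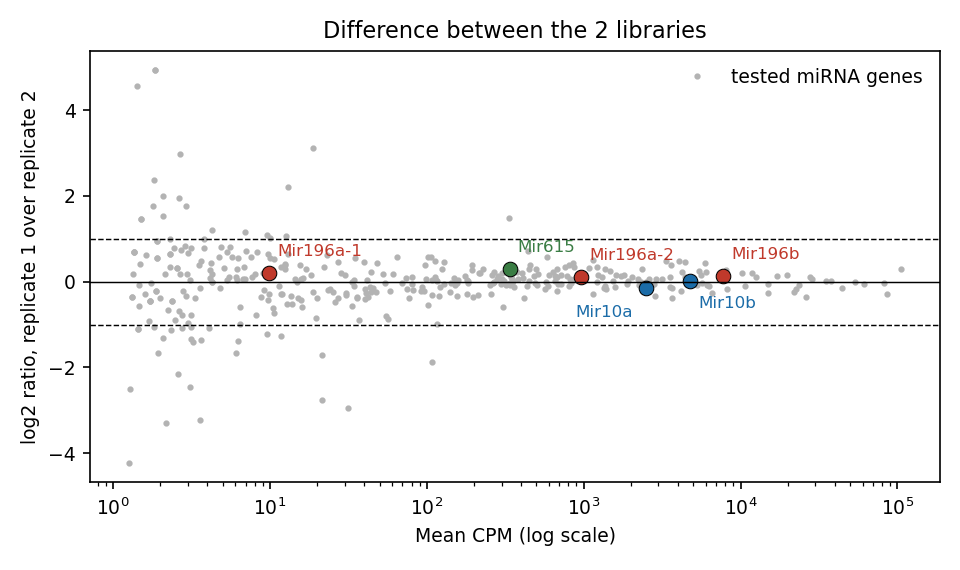
Log2 ratio of replicate 1 over replicate 2 (vertical axis) against mean CPM on a log scale (horizontal axis) for the 395 genes tested, in grey. The 6 Hox cluster genes, as coloured circles, lie between -0.15 (Mir10a) and 0.30 (Mir615), inside the dashed lines at 2-fold.

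Because the Hox genes are known targets, the 3′ UTRs of the 39 Hox genes in the annotation were searched for the letters complementary to each seed, on the sense strand, with the longest 3′ UTR of each gene. The miR-196 match, ACTACCT, was found in 9 of the 39 Hox genes (23.1%) and in 6.11% of 21014 protein-coding genes. The median 3′ UTR length was 966 bases for the Hox genes and 961 bases for all genes, and matches per kb were 0.340 in the Hox genes and 0.0455 in all genes. The match shares 6 letters with the let-7 match, CTACCTC, and 2 of the 13 Hox matches also hold the let-7 one. The miR-10 match, ACAGGGT, was found in 4 Hox genes (10.3%), against 12.5% of all genes. Per kb, however, the values were close, at 0.105 in the Hox genes and 0.0997 in all genes. An A opposite base 1 was also added, a choice made after seeing the data. With it, 3 Hox genes (7.69%) and 2.08% of all genes held the miR-10 match. Which miR-10 share is higher thus depends on the measure and rests on few Hox genes. The miR-615-3p match, GGCTCGG, was found in Hoxb4 alone (2.56%), against 2.30% of all genes. These are matches of letters, and no Hox messenger RNA was measured here.

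The Hox genes with a match all lay on the Hox1 side of the place of the miRNA. For miR-196 they were 9 of the 27 Hox genes numbered 9 or lower and 0 of the 12 numbered above. Hoxa7 held 4 matches and Hoxc8 held 2, and the other genes with a match held 1 each. For miR-10 they were 4 of the 12 Hox genes numbered 4 or lower and 0 of the 27 numbered above. Over all protein-coding genes, 6.11% held a miR-196 match and 12.5% a miR-10 match. With bases 2 to 7, a match was in 16 Hox genes for miR-196 and 9 for miR-10, and their sides were not examined. The split by side was made after the matches were listed, and it describes sequence, not expression.

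**Figure D5:**
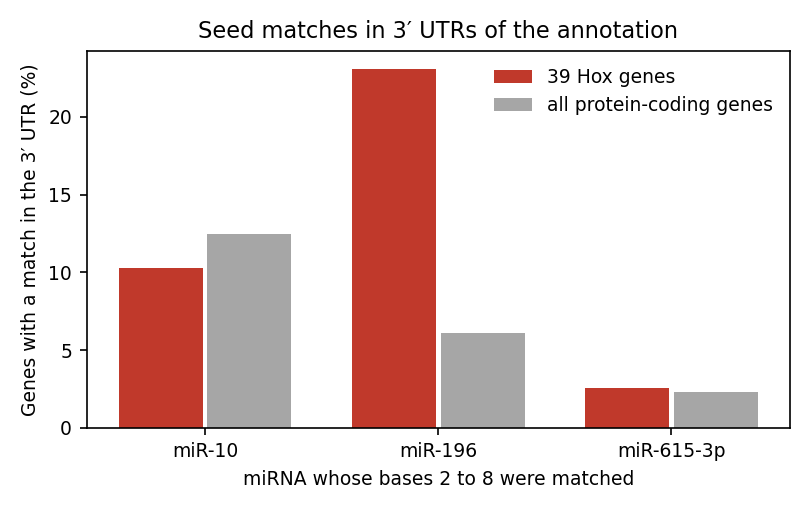
Share of genes, in percent, whose longest annotated 3′ UTR holds a match to bases 2 to 8 of miR-10, miR-196 or miR-615-3p, for the 39 Hox genes (red) and all 21014 protein-coding genes (grey). The Hox share is 23.1% against 6.11% for miR-196, 10.3% against 12.5% for miR-10 and 2.56% against 2.30% for miR-615-3p.

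Hoxb8 is missing from this count because its site pairs with 1 seed base of miR-196 through G and U. Over the whole arm it was the Hox 3′ UTR stretch most complementary to miR-196a-5p without gaps, starting at base 418 of the 845 bases of the 3′ UTR. Of 22 bases, 21 form Watson-Crick pairs, shown in capitals, and the remaining base forms a G to U pair.
Hoxb8 site, 5′ to 3′: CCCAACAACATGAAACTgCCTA
Hoxd8 site, 5′ to 3′: CtCAACAACATaAActTcCtaA

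The same Hoxb8 stretch forms 20 Watson-Crick pairs and 1 G to U pair with the 22 bases of miR-196b-5p. The next best stretch for miR-196a-5p, in Hoxd8, forms 15 Watson-Crick pairs and 3 G to U pairs over 22 bases and has no full seed match. No ungapped Hox 3′ UTR stretch formed more than 15 Watson-Crick pairs with a miR-10 arm of 23 bases, G to U pairs not counted.

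The tissue label was checked against miRNA genes known from muscle and from other tissues. Of 9 striated muscle genes, 8 were detected, with Mir206 first of all genes at 105606 ± 14626 CPM, and together they held 11.7% of the reads in replicate 1 and 9.61% in replicate 2. Nearly all of that share was Mir206. The other muscle genes had means from 339.8 CPM (Mir499) down to 1.04 CPM (Mir133a-2, not detected), with Mir1a-1 at 3.61 and Mir133a-1 at 4.07 CPM. Reads of these genes that aligned to several places were not counted. Mir126a, known from endothelium, held 4.20% and 4.63% of the reads in replicates 1 and 2, and those from smooth muscle and stroma 2.35% and 2.99%. Blood genes held 0.250% and 0.225%, epithelial genes 0.0182% and 0.0115%, the liver gene Mir122 0.0491% and 0.0176%, and 9 genes of nervous tissue 0.0250% and 0.0377%. Most of the nervous tissue reads were those of Mir338, at 243 and 367 CPM in replicates 1 and 2. Mir9-2 and all 3 Mir124a genes had no read in either library. Since reads aligned to several places were counted on no gene, this does not show their absence. The muscle share was higher in replicate 1 through Mir206 alone, at 115948 CPM in replicate 1 and 95264 CPM in replicate 2. Each of the other 8 muscle genes was higher in replicate 2, such as Mir208b at 82.6 and 120.3 CPM and Mir486 at 189.7 and 235 CPM in replicates 1 and 2. Some of these differences were small or rested on few reads. In replicates 1 and 2, Mir499 had 336 and 344 CPM, Mir1a-1 12 and 15 reads, and Mir133a-2 2 and 6 reads. The blood, liver and epithelial shares were, like Mir196b, Mir196a-2 and Mir615, higher in replicate 1, while the endothelial, stromal and nervous tissue shares were, like Mir10a, higher in replicate 2. Their part in the levels of the Hox cluster genes was not tested. In bulk tissue, more cells of a type and more RNA per cell cannot be told apart.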

How the data were processed

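MicroRNA libraries were made from total RNA of 2 tissue samples, with a size range under 30 (no unit given), per the labels. The deposited files hold raw read counts per miRNA gene (2202 genes and 4 summary rows), without strand, sense and antisense, with build mm10 and annotation GENCODE M21 per the descriptions deposited beside them. Trimming, aligner and filters: not given in the sources used here. Each count sums both arms of a hairpin, and reads aligned to several places are set aside. The build is of C57BL/6J; whether CAST alleles align as well was not tested. Summary rows (42.6% and 46.4% multiply aligned, 11.8% and 12.3% unaligned) stayed out of totals.

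Sense counts were scaled to CPM here. Libraries were compared by an exact conditional binomial test over genes with at least 10 counts, with 0.5 added to each count for log ratios (scipy 1.17.1, statsmodels 0.14.6), checked on simulated counts. The p-values cover counting error only. Counts of the libraries differed beyond sampling noise (chi-square 90.8 per degree of freedom over 386 genes), so they are not 1 library deposited again; this does not show that they come from separate animals. TMM factors came from edgeR 4.0.16 and size factors from DESeq2 1.42.0. Coordinates, hosts and 3′ UTRs come from GENCODE M21; some Hox genes with a seed match are counted but not reported by name here. Mature arms come from RefSeq, and all 6 members matched by symbol. Members, gene lists and tests were chosen with earlier results of these data known. Genes named beside the members are other miRNA genes within the Hox clusters or with the same seed, Mir99a, Mir99b, Mir100, and the detected genes next above and below each member in level.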

Additional observations from a re-analysis of the deposited data

How the results depend on the processing

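The order of the 6 genes was the same in each library alone. Of the 5 other settings, counts taken without strand equalled the sense counts for all 6 members. The rest divide all genes of a library by 1 number. None of the 5 could therefore change the order. The summed level of 16299 CPM became 19499 with counts taken without strand, 18230.2 without Mir206 in the total and 6679.9 per 1e6 of all reads, and was within 1 SD with TMM or DESeq2 factors. It ran from 15971 to 16627 with 1 replicate left out. Of 30 values of single genes under the 5 other settings, 17 moved by more than 1 SD. Ratios of neighbours with 1 replicate left out ran from 1.55 to 1.69 (Mir196b over Mir10b), 1.80 to 2.02 (Mir10b over Mir10a) and 2.35 to 2.83 (Mir10a over Mir196a-2).

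The number of genes called different between the libraries, 28, became 13 with at least 50 counts required. Genes below that limit were then not tested. With no fold limit the number was 163, 4 of them members. No member was called under the 6 settings with a fold limit. Detection at 10 CPM left 5 members. With bases 2 to 7 matched, a choice made after seeing the data, a miR-196 match was in 41.0% of Hox genes against 26.3% of all genes, and a miR-10 match in 23.1% against 32.5%. An A opposite base 1 was also added after seeing the data. The shares were then 12.8% against 1.27% for miR-196 and 7.69% (3 Hox genes) against 2.08% for miR-10. For miR-10 the higher share thus depends on the match used. Depth limits Mir196a-1 most, and reads set aside limit both Mir196a genes.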
